A study of Mus musculus with 4 samples.

Results

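VEGF and angiopoietin signalling was examined through 10 genes, the receptors Kdr, Flt1, Flt4, Tek and Tie1, the coreceptors Nrp1 and Nrp2, and the ligands Angpt1, Angpt2 and Vegfc. They were taken by symbol from the 32285 genes of the count matrices. The rule that takes them uses no measured value, but the list was chosen with earlier results of these data known. In single-nucleus RNA-Seq of mouse lungs, the levels of these genes differed between endothelial types. Kdr and Nrp1 were highest in aerocytes, Flt1, Tek and Vegfc in venous ECs, Tie1 in arterial ECs with venous ECs overlapping them, and Flt4, Nrp2 and Angpt2 in lymphatic ECs, while Angpt1 was highest in alveolar fibroblasts. Between genotypes, 6 differences in these genes passed the test over 5 comparisons within cell classes, of which blood ECs hold the general capillary ECs and aerocytes too. Among all genes, 9.08% to 16.4% were called in these comparisons, and each of the 6 calls was lost under several other ways of processing the data. For 2 of them, Angpt2 in general capillary ECs and Tek in alveolar fibroblasts, only the Tg mice reached the level needed for a gene to be tested.

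VEGFs are secreted ligands of receptor tyrosine kinases on endothelial cells (ECs), where they drive vessel growth, survival and permeability. The neuropilins bind VEGFs beside these kinases and also serve as receptors for class 3 semaphorins. Angiopoietins act through the kinase Tek (TIE2), with Tie1 as a related partner that modulates it. Angpt1, made mostly by cells around vessels, activates Tek and quiets the endothelium, and Angpt2 mostly opposes it in blood vessels. Vegfc acts through Flt4 and is the main growth signal of lymphatic vessels. In the lung, alveolar type 1 (AT1) cells are a known source of Vegfa, and aerocytes are the thin capillary ECs that face them across the gas exchange surface.

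The lungs came from 2 WT mice (strain C57/BL6J) and 2 VEcad-TRF2DN-Tg mice, aged 8 to 9 weeks. Per the study's methods the Tg mice had the same background and were kept as heterozygotes bred with WT mice. In these Tg mice a VE-cadherin promoter, active in ECs, drives a dominant-negative TRF2, which disturbs telomeres and makes ECs senesce early, and the model serves to ask how aged ECs act on the lung. Per the study, all 4 mice had been kept in chronic hypoxia, by its methods of 10% oxygen for 3 weeks, which the labels do not state. The methods say that male mice were regularly used, without giving the sex of these 4. They do not state whether the age of 8 to 9 weeks is that before or after the hypoxia. No normoxic lung was analysed here, so the levels below are those of hypoxic lungs in both genotypes. In what follows, values of the 4 mice are always given in the order WT 1, WT 2, Tg 1, Tg 2.

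A level is the number of UMIs (unique molecular identifiers, each marking 1 captured RNA molecule) of a gene in a cell class of a mouse, scaled to counts per 1000000 UMIs of that class (CPM). It was compared only within a gene, since the number of UMIs per nucleus also depends on a gene's length and introns. Beside each level stands the same measure in barcodes with 300 to 800 UMIs, taken as droplets with free RNA and no nucleus, because free RNA adds UMIs of every gene to every nucleus. A gene at or below the level of the droplets was therefore not read as expressed in that class, nor as absent, since free RNA is only part of the UMIs of a nucleus. The mouse was the replicate, and an exact permutation test of 2 against 2 mice cannot go under a two-sided p of 0.33. Differences between genotypes were therefore tested with edgeR across all genes, on UMIs summed per mouse and class. The labels do not say how the mice of a group were related, so the spread between 2 mice may understate that between animals.

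The matrices held 125261739, 146133943, 128645180 and 182014706 UMIs. Of 134745 barcodes with at least 1500 UMIs, 56338 fell into 18 cell classes named from markers, 16 of which had at least 10 nuclei in every mouse. The named share differed between libraries, with 31.8%, 27.3%, 67.7% and 45.7% of the barcodes, and many clusters were of 1 genotype. This held for named nuclei too. In the first clustering, an EC cluster held 743, 631, 25 and 177 nuclei and another 0, 4, 626 and 622, and alveolar fibroblasts came from a cluster with all mice and from others with 0 WT nuclei. ECs and mesenchyme were clustered again after each mouse was centred on its own mean, a step meant to keep clusters from following mice. The clusters that make up the general capillary ECs, aerocytes, venous ECs and alveolar fibroblasts then held nuclei of all 4 mice. The centring favours such mixing, so it does not show that these classes are alike between genotypes. Alveolar macrophages were not clustered again, and those of WT mice lay mostly in 1 cluster (1364, 2291, 8 and 165 nuclei) and those of Tg mice in 2 others (0, 2, 796 and 4545 in the first, 0, 0, 2669 and 3 in the second). Between 0.697% and 1.30% of the barcodes were also present in another library. Blood ECs numbered 962, 753, 1066 and 1181 nuclei, and their marker list (Pecam1, Cdh5 and 8 others) was detected in full, at summed levels of 5892 to 6924 CPM against 721 to 1050 in the droplets. Lymphatic ECs numbered 124, 110, 158 and 159 nuclei, with a marker list at 2723 to 3316 CPM against 93.6 to 151 in the droplets. Pericytes numbered 43, 35, 47 and 70 nuclei. Smooth muscle cells formed no class of their own. Alveolar macrophages were a weakly marked class, whose own list stood at 6415 to 9634 CPM against 3513 to 8794 in the droplets. The droplets differed between genotypes as well. Markers of club cells summed to 20108 and 17800 CPM in the WT droplets and to 142579 and 50554 in the Tg droplets.

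Flt1, Tek and Vegfc had their highest mean level in the same class, the venous ECs. The 250 bases before their RefSeq transcription starts (build GRCm38.p6, 5′ to 3′ on the strand of the gene) are shown for that reason, with the core letters bound by ETS factors, a family that includes EC regulators, in capitals (GGAA, or TTCC on the other strand). They lie at chr5:147726012-147726261 (minus strand) for Flt1, chr4:94739039-94739288 (plus strand) for Tek and chr8:54077282-54077531 (plus strand) for Vegfc.
Flt1: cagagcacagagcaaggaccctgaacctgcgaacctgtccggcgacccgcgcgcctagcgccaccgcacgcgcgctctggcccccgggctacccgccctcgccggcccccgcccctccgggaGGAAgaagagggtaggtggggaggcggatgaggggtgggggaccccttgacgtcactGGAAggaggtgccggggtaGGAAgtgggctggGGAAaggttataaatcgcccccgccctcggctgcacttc
Tek: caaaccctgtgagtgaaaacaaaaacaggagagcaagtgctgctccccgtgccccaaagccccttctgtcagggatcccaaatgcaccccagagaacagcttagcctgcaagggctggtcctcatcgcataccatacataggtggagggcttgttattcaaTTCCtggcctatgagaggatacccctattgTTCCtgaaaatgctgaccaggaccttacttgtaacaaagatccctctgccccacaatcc
Vegfc: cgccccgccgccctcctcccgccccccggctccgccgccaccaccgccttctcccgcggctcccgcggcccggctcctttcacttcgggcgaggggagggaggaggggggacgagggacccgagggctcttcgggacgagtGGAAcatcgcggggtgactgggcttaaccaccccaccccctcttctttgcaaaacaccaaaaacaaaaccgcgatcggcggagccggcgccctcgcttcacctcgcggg
The Flt1 window held 4 such cores, the Tek window 2 and the Vegfc window 1. At least 1 core is present in 93.4% of 27025 mouse promoters of the same length, with a median of 3, so these counts were common ones. Of the other members with an entry, Kdr and Nrp1 held 4, Flt4 held 2 and Nrp2 held 1. Tie1 held 7, a number reached by 3.77% of promoters. The forkhead core TAAACA, read on both strands, was in 12.0% of promoters and in 0 of the 8 windows. These are matches of letters only. The table had no entry for Angpt1 and Angpt2.

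Kdr (ENSMUSG00000062960, chr5:75932827-75978458, minus strand), the main signalling receptor of Vegfa, was highest in aerocytes. Its levels there were 290, 292, 399 and 382 CPM, against 77.0, 115, 122 and 147 in the droplets, or 2.53 to 3.77 times the droplets. Lymphatic ECs followed with 210, 237, 222 and 266 CPM, below the aerocytes in 4 of 4 mice and with no overlap. General capillary ECs had 63.0, 93.1, 105 and 120 CPM. That was at or below the droplets in 4 of 4 mice, as were the levels in arterial ECs (15.9, 109, 88.3 and 104 CPM) and venous ECs (56.0, 48.7, 72.3 and 95.8 CPM), so that Kdr was not read as expressed there. Free RNA was estimated at 49.9% to 72.9% of the Kdr level in general capillary ECs, which by that estimate leaves a part that is not free RNA. The mean of the aerocytes, 341 ± 57.9 CPM (SD, n = 4), was 3.58 times that of the general capillary ECs.

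Flt1 (ENSMUSG00000029648, chr5:147561604-147726011, minus strand), a receptor that binds Vegfa tightly and signals little, was broader. Venous ECs had 910, 901, 1018 and 958 CPM, 4.86 to 9.13 times the droplets (161, 186, 111 and 125 CPM) and above every other class in 4 of 4 mice. Next came general capillary ECs (432, 516, 584 and 530 CPM), arterial ECs (471, 493, 437 and 627 CPM), alveolar macrophages (463, 464, 447 and 474 CPM) and aerocytes (343, 393, 514 and 455 CPM), whose ranges overlapped. The macrophages were the class whose own markers stood little above the droplets, and their summed EC markers were 574, 421, 406 and 449 CPM, below the droplets in all 4 mice. Pericytes had 292, 163, 95.6 and 133 CPM. Lymphatic ECs, at 105, 206, 131 and 126 CPM, were near the droplets.

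Flt4 (ENSMUSG00000020357, chr11:49609263-49652739, plus strand), the receptor of Vegfc, was highest in lymphatic ECs at 312, 329, 429 and 379 CPM, from 128, 160, 170 and 187 UMIs. The droplets had 8.10, 9.94, 15.1 and 19.0 CPM, so the lymphatic ECs stood 19.97 to 38.5 times higher. With every nucleus thinned to 1500 UMIs, 40.3%, 43.6%, 42.4% and 41.5% of lymphatic EC nuclei had a Flt4 UMI, and 58.1%, 63.6%, 55.7% and 52.8% without thinning. In T or NK cells, a class outside the endothelium, the thinned shares were 1.05%, 1.15%, 0.763% and 0.736%. Median depths were 2289 to 3306 UMIs in lymphatic ECs and 1855 to 2457 in T or NK cells. Aerocytes came next for Flt4 with 31.8, 36.9, 26.9 and 29.97 CPM, above the droplets in 4 of 4 mice and 11.5 times lower by the ratio of means. All UMIs of Flt4 in named classes counted, lymphatic ECs held 45.2%, 38.7%, 33.4% and 29.2% of them.

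**Figure D1:**
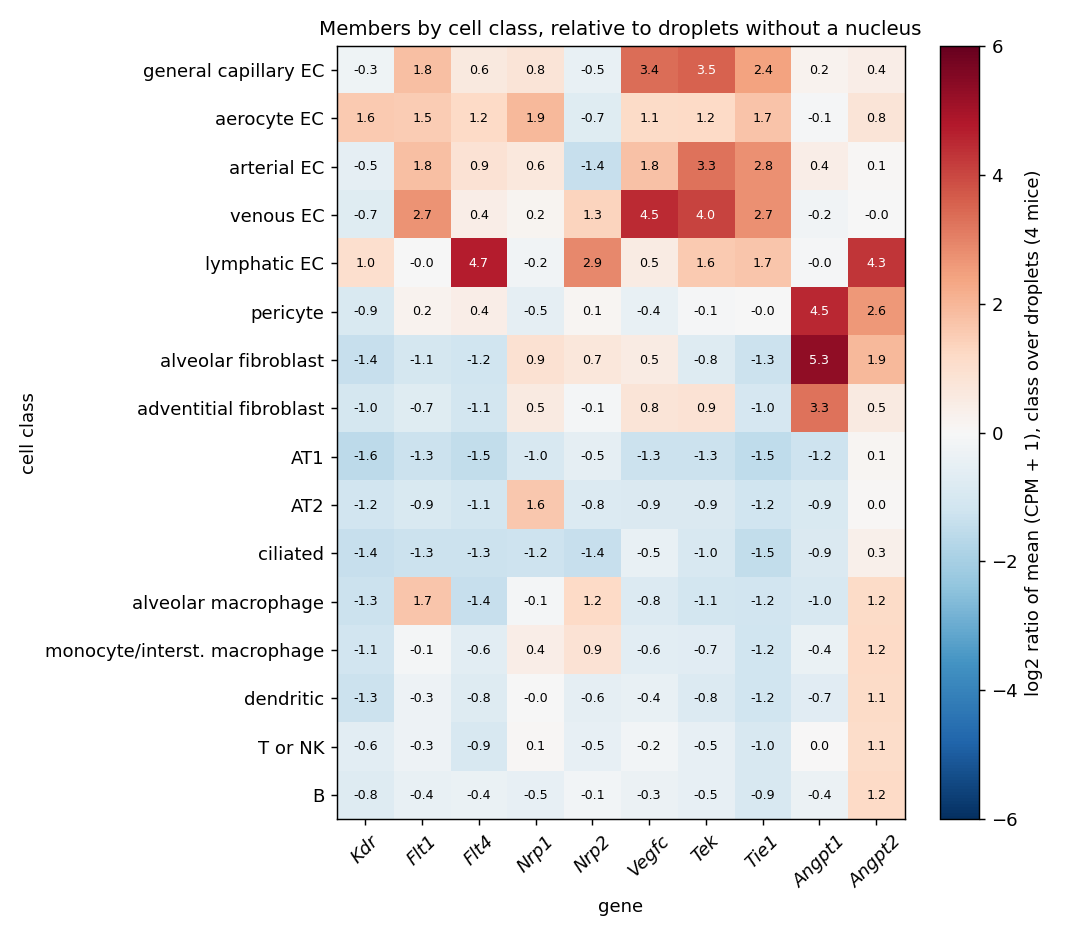
Levels of the 10 genes in the 16 cell classes, drawn as the log2 ratio of the mean CPM plus 1 over the 4 mice in a class to that in droplets without a nucleus (colour scale, red above and blue below the droplets; rows are classes and columns genes). Flt4, Nrp2 and Angpt2 are reddest in lymphatic ECs, Tek and Vegfc in venous ECs and Angpt1 in alveolar fibroblasts, while Kdr is reddest in aerocytes, at a mean of 341 CPM.

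Nrp1 (ENSMUSG00000025810, chr8:128358604-128503363, plus strand), a coreceptor of Vegfa and of Sema3a, was highest in aerocytes at 1446, 1167, 1279 and 1447 CPM. Alveolar type 2 (AT2) cells followed with 1146, 1004, 1004 and 1135 CPM, lower in 4 of 4 mice and with no overlap. In named classes its UMIs lay mostly outside the endothelium, with 11.3%, 8.24%, 8.12% and 7.21% of them in blood ECs. The UMIs of Kdr (23.6%, 15.6%, 8.74% and 10.2%) and Flt1 (28.5%, 15.6%, 20.8% and 13.7%) did so too. All these shares count free RNA. Alveolar fibroblasts had 769, 590, 559 and 691 CPM and general capillary ECs 669, 657, 483 and 623 CPM. The droplets had 544 and 425 CPM in WT and 177 and 257 in Tg mice. A microRNA gene, Mir1903, lies within Nrp1 on the same strand.

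Nrp2 (ENSMUSG00000025969, chr1:62703285-62818695, plus strand), the coreceptor that binds Vegfc beside Flt4, was highest in lymphatic ECs at 1155, 1135, 835 and 1152 CPM. The droplets had 201, 180, 73.6 and 116 CPM, and the lymphatic ECs stood 5.76 to 11.4 times higher. Venous ECs (468, 268, 323 and 365 CPM) and alveolar macrophages (558, 335, 176 and 257 CPM) followed and overlapped. Monocytes or interstitial macrophages (340, 197, 210 and 286 CPM) and alveolar fibroblasts (260, 205, 221 and 223 CPM) also exceeded the droplets in 4 of 4 mice. General capillary ECs, at 130, 133, 60.0 and 90.0 CPM, were below the droplets in every mouse. The venous mean was 3.45 times the general capillary mean. Gm37121 lies within Nrp2 on the same strand and Gm29083 on the other strand, and whether strand was used in the counting is not given in the sources used here.

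Tek (ENSMUSG00000006386, chr4:94739289-94874976, plus strand), the angiopoietin receptor, was highest in venous ECs at 775, 682, 772 and 793 CPM, or 12.4 to 20.3 times the droplets (62.4, 37.0, 38.0 and 43.6 CPM). General capillary ECs had 452, 469, 642 and 556 CPM, lower by a ratio of means of 1.43. Arterial ECs, with 21 to 86 nuclei a mouse, had 561, 205, 503 and 516 CPM. Aerocytes stood apart from the other blood ECs, with 86.8, 83.0, 120 and 128 CPM. The general capillary mean was 5.07 times the aerocyte mean, with no overlap, while Kdr and Nrp1 had the opposite order between these capillary types. Lymphatic ECs had 102, 130, 156 and 150 CPM. Of all Tek UMIs in named classes, blood ECs held 62.2%, 52.7%, 61.1% and 51.6%.

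Tie1 (ENSMUSG00000033191, chr4:118471191-118490061, minus strand), the orphan partner of Tek, was highest in arterial ECs at 116, 137, 208 and 176 CPM, against 17.5, 15.8, 30.7 and 26.7 in the droplets. Venous ECs were next (110, 117, 256 and 147 CPM) and overlapped with them, as did general capillary ECs (70.0, 112, 182 and 132 CPM). Aerocytes had 38.1, 49.2, 130 and 89.9 CPM, from 18, 32, 53 and 63 UMIs. The ratio of the general capillary to the aerocyte mean was 1.61 with overlapping ranges, smaller than that of Tek. Lymphatic ECs had 43.9, 78.2, 103 and 75.0 CPM. In every EC class, the lowest Tie1 level was that of WT 1 and the highest that of Tg 1.

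Angpt1 (ENSMUSG00000022309, chr15:42424723-42676977, minus strand), the activating ligand of Tek, was highest in mesenchymal classes. Alveolar fibroblasts had 1966, 1903, 1484 and 1728 CPM, against 72.9, 47.4, 24.2 and 27.2 in the droplets, or 27.0 to 63.6 times as much. Pericytes, the mural cells of capillaries, had 933, 1224, 956 and 956 CPM, and adventitial fibroblasts 531, 399, 309 and 451 CPM. The order of these classes held in 4 of 4 mice with no overlap. Blood ECs, at 72.4, 52.5, 33.1 and 30.6 CPM, were at the level of the droplets or little above it. Gm17473 lies on the other strand within Angpt1.

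Angpt2 (ENSMUSG00000031465, chr8:18690263-18741562, minus strand), the context-dependent antagonist of Tek, had few UMIs. It was highest in lymphatic ECs at 92.6, 61.7, 136 and 52.7 CPM, 11.4 to 39.9 times the droplets (3.42, 2.38, 3.41 and 4.62 CPM). Pericytes had 16.2, 24.5, 28.7 and 35.8 CPM from only 2, 3, 3 and 7 UMIs. Alveolar fibroblasts had 15.4, 16.8, 15.6 and 15.8 CPM. General capillary ECs had 3, 3, 12 and 13 UMIs. The gene lies within Mcph1 on the other strand, and reads of the pair cannot be told apart without strand.

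Vegfc (ENSMUSG00000031520, chr8:54077606-54187096, plus strand), the ligand of Flt4, was highest in venous ECs. These had 993, 1062, 576 and 922 CPM, 14.8 to 46.1 times the droplets (67.1, 42.7, 25.0 and 20.01 CPM). General capillary ECs had 455, 379, 491 and 312 CPM and aerocytes 88.9, 81.4, 95.4 and 79.9 CPM. The general capillary mean was 4.74 times the aerocyte mean, an order shared with Tek. Lymphatic ECs, which carry its receptor, had 43.9, 57.6, 50.5 and 64.9 CPM, 16.4 times lower than venous ECs by the ratio of means. Blood ECs held 59.5%, 50.2%, 46.5% and 38.5% of the Vegfc UMIs in named classes.

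Vegfa, the ligand of Kdr and Flt1 and the first gene of a list of 31 further pathway genes, was highest in AT1 cells at 1172, 733, 749 and 582 CPM, 5.70 to 8.56 times the droplets. In blood ECs it had 140, 105, 90.0 and 88.7 CPM against 150, 115, 87.5 and 102 in the droplets. That was below the droplets in 3 of 4 mice, and free RNA was estimated at 38.8% to 60.2% of the level.

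**Figure D2:**
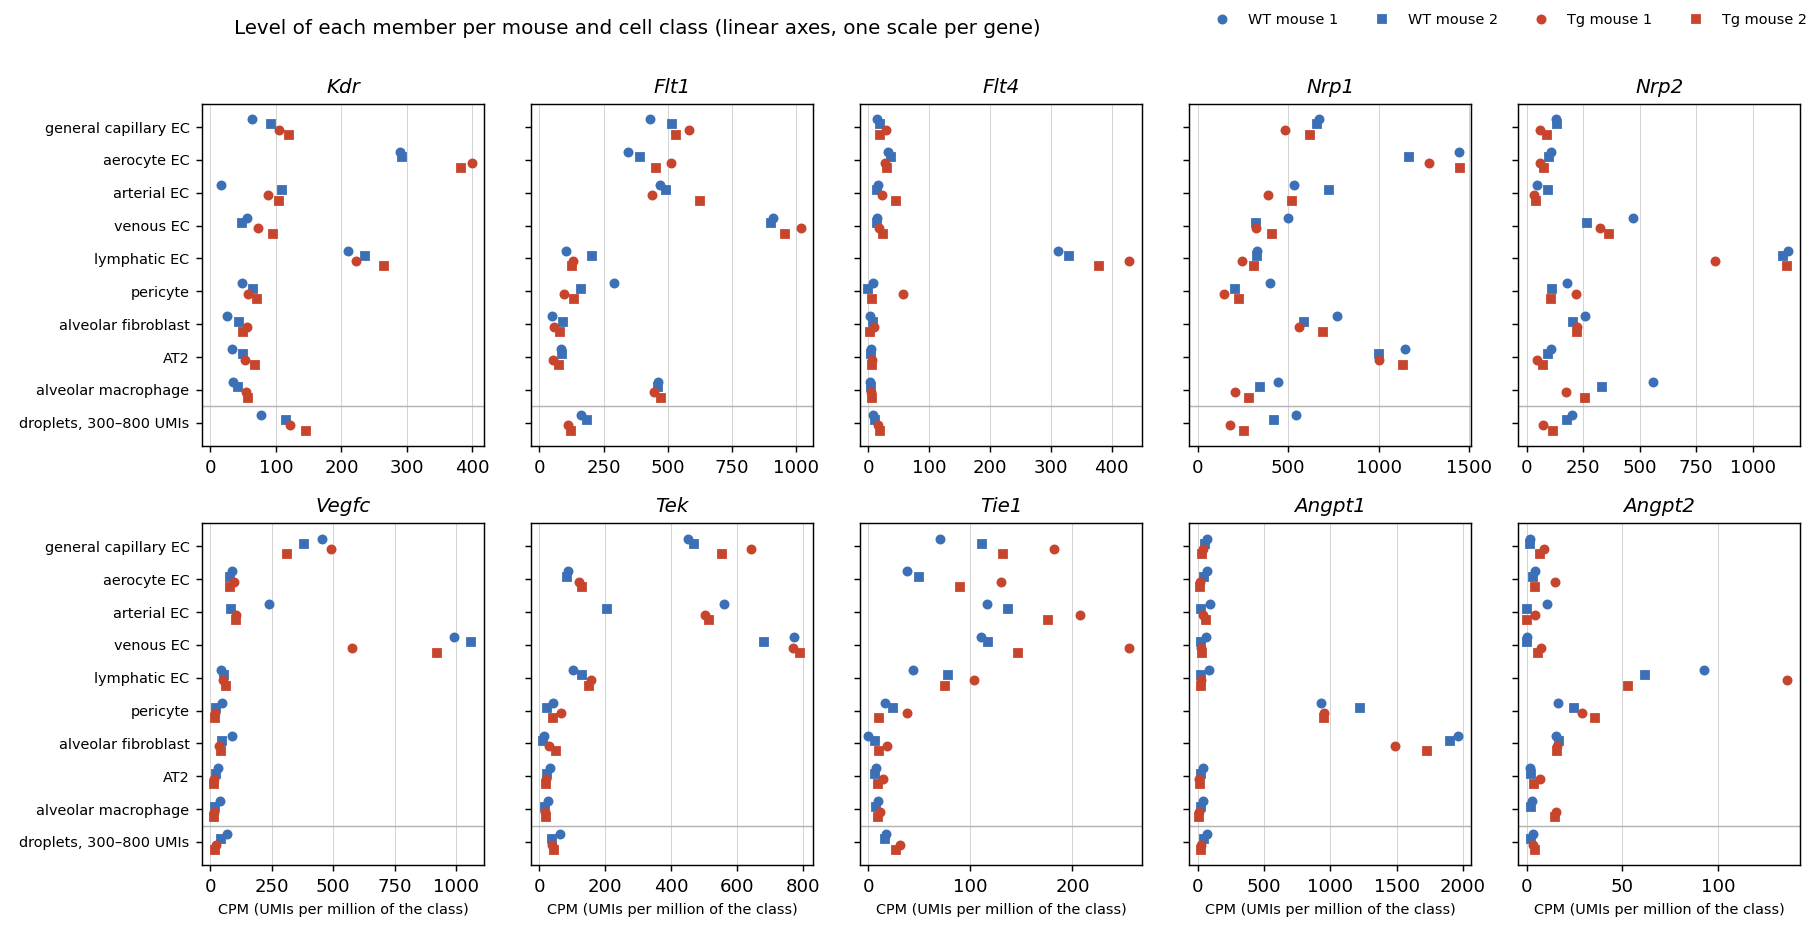
Levels (CPM, 1 panel a gene) of the 10 genes in 9 cell classes and in droplets without a nucleus, with 1 point a mouse (WT blue, Tg red, circles for mouse 1 and squares for mouse 2). The lymphatic points of Flt4 lie at 312 to 429 CPM, far above the aerocyte points at 26.9 to 36.9, and the venous points of Vegfc at 576 to 1062.

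The genes whose levels over the 16 classes were most like those of each member are given as a description, by Pearson correlation of log2(CPM + 1) of the class means among 11239 genes. The classes share libraries and free RNA. For Tek these were Acer2 (r = 0.98) and Wscd1 (r = 0.97), and for Vegfc Wscd1 (r = 0.93) and Palmd (r = 0.92), so that both members shared Wscd1. Tie1 was closest to Nova2 and Adgrl4 (r = 0.98 each), Flt4 to Unc5b (r = 0.94) and Ephb1 (r = 0.91), and Nrp2 to Prox1 (r = 0.84) and Rem1 (r = 0.81). Adgrl4, Unc5b and Prox1 are themselves on the marker lists that named the classes. Kdr was closest to Agfg1 (r = 0.94) and Ephb1 (r = 0.92), Flt1 to Il20rb (r = 0.91) and Ifitm10 (r = 0.90), and Nrp1 to Xdh (r = 0.87) and Prrg3 (r = 0.77). Angpt1 was closest to Pla2r1 and Ednra (r = 0.98 each), and Angpt2 to A830019P07Rik (r = 0.90) and Emid1 (r = 0.89).

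The comparison of Tg with WT mice asked whether these genes differ in lungs with senescent ECs. In all blood ECs, Angpt1 fell, and the other 9 members did not pass the test. Its levels of 72.4 and 52.5 CPM in WT and 33.1 and 30.6 in Tg mice, from 207, 134, 78 and 92 UMIs, did not overlap. The log2 difference (Tg minus WT) was -0.94 ± 0.25 (SE, adjusted p = 0.0448 by edgeR). So 1 of 10 members was called, beside 15.4% of all 13337 genes tested (2052, of which 1349 were higher and 703 lower in Tg mice). The level in blood ECs was near that of the droplets throughout. In the droplets Angpt1 was lower in Tg mice too, with a log2 ratio of -1.23, and free RNA was estimated to make up 50.8%, 49.3%, 29.2% and 41.6% of the level in blood ECs. With free RNA subtracted the fold change was -0.91 (adjusted p = 0.186). Without the general capillary cluster with weaker EC markers, 0 of 9 members tested were called in blood ECs. Summed alveolar fibroblast markers in blood ECs were 265, 290, 249 and 305 CPM, below the droplets in all 4 mice, and pericyte markers were 63.3, 60.8, 74.3 and 57.8 CPM against 73.2, 50.7, 79.4 and 81.1 in the droplets. The call was lost without WT mouse 1 (adjusted p = 0.167), Tg mouse 1 (0.19) or Tg mouse 2 (0.161), and with DESeq2 (0.0709).

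In blood ECs Tie1 had 74.5 and 96.8 CPM in WT and 188 and 126 in Tg mice, with no overlap and a log2 difference of 0.92 ± 0.25 (adjusted p = 0.0521). Its adjusted p ranged from 0.000889 to 0.290 over 13 alternatives, and 6 of them put it past the threshold, among them DESeq2 (0.0463). The log2 fold change was 0.55 without Tg mouse 1, the library with the highest level, 0.59 with free RNA subtracted (adjusted p = 0.249) and 0.49 with classes set from marker UMIs (0.258). Free RNA was estimated at 6.54% to 11.8% of the Tie1 level, and in the droplets Tie1 was higher in Tg mice too, by a log2 ratio of 0.79. Angpt2 had 7, 5, 22 and 18 UMIs, or 2.45, 1.96, 9.34 and 5.98 CPM, with a log2 fold change of 1.79 ± 0.50 (adjusted p = 0.0524). Only the Tg mice reached the 3.70 CPM of the filter, so this gene too was tested through the group in which it was higher. The ratio of the summed UMIs was 3.36 (95% exact binomial interval of counting error, 1.73 to 7.04).

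The other 7 members did not pass the test in blood ECs. Without WT mouse 2, which leaves 1 WT mouse, the log2 fold change was 0.77 for Kdr and -0.72 for Nrp2. Without WT mouse 1 they had 0.27 and -0.26. Kdr had 96.2 and 141 CPM in WT and 149 and 178 in Tg mice (log2 fold change 0.51 ± 0.21, adjusted p = 0.141), and these levels were 1.21 to 1.25 times those of the droplets. Tek had 453, 380, 559 and 481 CPM (0.36 ± 0.20, adjusted p = 0.255). Flt1 had a log2 fold change of 0.28 ± 0.18 (adjusted p = 0.324) and Flt4 of 0.35 ± 0.26 (0.375). Of the coreceptors, Nrp2 had 178, 134, 100 and 115 CPM (-0.50 ± 0.21, adjusted p = 0.134) and Nrp1 had 760, 762, 586 and 786 CPM (-0.12 ± 0.20, 0.710). Vegfc had 471, 350, 399 and 315 CPM (-0.16 ± 0.24, 0.667). Venous ECs, the class highest in Flt1, Tek and Vegfc, were 14.1%, 6.64%, 15.3% and 10.2% of the blood ECs. The median log2 fold change was 0.31 over the members and 0.02 over all genes tested. The members' median was 0.077 with at least 2500 UMIs, -0.0060 with free RNA subtracted and -0.097 with classes set from marker UMIs.

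**Figure D3:**
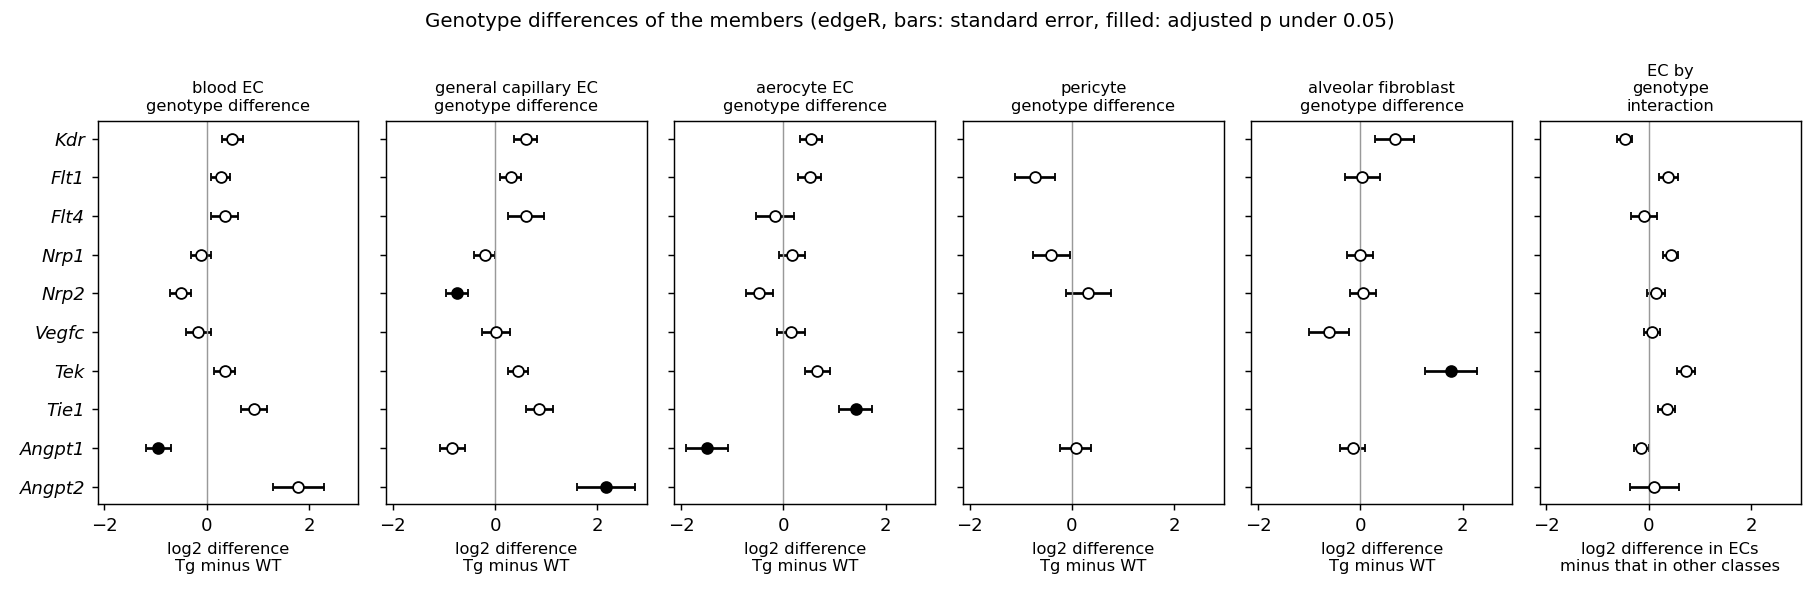
Log2 fold change of Tg over WT mice (horizontal axis) with its standard error (bars) for each gene, in 1 panel a comparison (blood ECs, general capillary ECs, aerocytes, pericytes, alveolar fibroblasts, and blood ECs against the other classes). Filled points passed an adjusted p of 0.05 and open points did not, and the 6 filled points are Angpt1 in blood ECs, Nrp2 and Angpt2 in general capillary ECs, Tie1 and Angpt1 in aerocytes, and Tek in alveolar fibroblasts.

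Within general capillary ECs, the type with progenitor function, Nrp2 and Angpt2 passed the test, 2 of 10 members beside 16.4% of all genes tested. Only the Tg mice reached the 5.99 CPM that the filter on low counts asks for in Angpt2, so the gene was tested through the group in which it was higher and its call is given as a description. Nrp2 fell, with 223, 216, 80 and 164 UMIs and a log2 difference of -0.74 ± 0.21 (adjusted p = 0.0449 by edgeR). Its levels were below those of the droplets, which moved the same way by a log2 ratio of -1.003, and free RNA was estimated at 52.6% to 87.0% of the level. With free RNA subtracted the fold change was 0.13 (adjusted p = 0.917), so that the direction turned. The call was also lost without WT mouse 1 (0.0611), WT mouse 2 (0.0813) or Tg mouse 1 (0.238). Angpt2 had 1.75 and 1.85 CPM in WT and 9.00 and 7.13 CPM in Tg mice, a log2 fold change of 2.17 ± 0.57 (adjusted p = 0.0341) that rests on the 3, 3, 12 and 13 UMIs given above. Both WT levels were below the droplets (3.42 and 2.38 CPM), with free RNA estimated at 110% and 75.8% of them, against 16.3% and 32.5% in Tg mice. The summed ratio was 4.40 (95% exact binomial interval of counting error, 1.76 to 13.1). DESeq2 did not call it (adjusted p = 0.212), and leaving out any 1 mouse lost the call (0.135 to 0.304). Mcph1, the gene on the other strand, was lower in Tg mice, with 66.5, 63.5, 24.0 and 34.6 CPM. Tie1 (0.86 ± 0.27, edgeR adjusted p = 0.0579) and Angpt1 (-0.83 ± 0.25, 0.0543) had values like those in all blood ECs. Both were called with the replicate block and with no filter, and Angpt1 also with 1000 UMIs and without cxds doublets. With free RNA subtracted or classes set from marker UMIs, 0 members were called in general capillary ECs.

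In aerocytes, Tie1 rose and Angpt1 fell, 2 of the 9 members tested beside 11.4% of all genes tested. Tie1, at 38.1 and 49.2 CPM in WT and 130 and 89.9 in Tg mice, differed by 1.41 ± 0.33 on the log2 scale (adjusted p = 0.0247 by edgeR). Free RNA was estimated at 9.02% to 20.9% of that level, and the fold change was 1.36 (adjusted p = 0.165) with free RNA subtracted and 1.05 (0.204) without Tg mouse 1. Leaving out WT mouse 1 (0.113) or WT mouse 2 (0.099) also lost the call. Angpt1 had 74.1, 49.2, 22.0 and 18.5 CPM from 35, 32, 9 and 13 UMIs, with a log2 fold change of -1.49 ± 0.40 (adjusted p = 0.0447). The droplets had 72.9, 47.4, 24.2 and 27.2 CPM, so the level was close to them in WT and below them in Tg mice, and free RNA was estimated at 41.9% to 60.6% of it. Its call was lost without any 1 of the 4 mice (0.0555 to 0.169), and with free RNA subtracted the fold change was -1.90 (0.287). Kdr (0.54, adjusted p = 0.133), Tek (0.66 ± 0.24, 0.106), Nrp1 (0.17, 0.705), Flt4 (-0.16, 0.814) and Vegfc (0.15, 0.766) did not pass.

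In alveolar fibroblasts, the class with the highest Angpt1 level, that ligand differed by -0.15 on the log2 scale (adjusted p = 0.769 by edgeR). Tek alone passed the test, 1 of the 7 members tested beside 9.12% of all genes, but it too reached the filter's level (20.9 CPM) in the Tg mice only, so its call is a description. It had 15.4, 10.1, 29.0 and 49.3 CPM from 6, 6, 13 and 25 UMIs, against 62.4, 37.0, 38.0 and 43.6 CPM in the droplets, so that only Tg mouse 2 exceeded them. Its log2 fold change was 1.77 ± 0.51 (adjusted p = 0.0409), the ratio of the summed UMIs was 3.26 (95% exact binomial interval of counting error, 1.67 to 6.86), and the call was lost without WT mouse 2 (0.163) or Tg mouse 2 (0.37). Summed EC markers in these fibroblasts were 450, 394, 397 and 485 CPM, below the droplets. With classes set from marker UMIs, edgeR called Vegfc alone of 9 members tested, lower in Tg mice, beside 723 of 10701 genes. In the main classes the Vegfc means of alveolar fibroblasts were 69.3 CPM in WT and 40.5 in Tg mice, against 54.9 and 22.5 in the droplets. In pericytes, 4 members had enough UMIs to test, and 0 were called by edgeR beside 9.08% of all genes, 0 by DESeq2 and 0 at an unadjusted p under 0.05. Angpt1 there had a log2 fold change of 0.07 (adjusted p = 0.935) and Flt1 of -0.72 (0.320).

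Whether the genotype difference of blood ECs departed from that of all other named classes but lymphatic ECs was tested as an interaction, with a term for each mouse. The sum of the other classes differed in makeup between genotypes, with 0, 0, 3460 and 934 nuclei named club and 0, 3, 1463 and 1961 named mesothelial. Some clusters of mostly WT nuclei that leaned to these lineages were left unnamed. By edgeR, 0 of 10 members passed, beside 1.17% of all genes (210 of 17874). At an unadjusted p under 0.05 there were 3, and DESeq2 called 0. The 3 were Tek (0.73 ± 0.18, adjusted p = 0.0933), Kdr (-0.47 ± 0.15, 0.229) and Nrp1 (0.43 ± 0.14, 0.230), where a positive value means a Tg to WT difference more positive in blood ECs. Tek was called with no filter, with 1000 UMIs and without cxds doublets. With 1 mouse left out, which leaves a genotype with 1 mouse only, its value was 0.50 to 1.00. It turned to -0.54 with free RNA subtracted and to -0.55 with classes set from marker UMIs. Kdr, Flt1, Nrp1 and Vegfc were also called under some alternatives. With the other classes limited to those with 10 nuclei in every mouse, chosen after seeing the data, Vegfc was called (0.80, adjusted p = 0.0269), and with free RNA subtracted it was called in the opposite direction (-2.24, adjusted p = 0.0457).

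**Figure D4:**
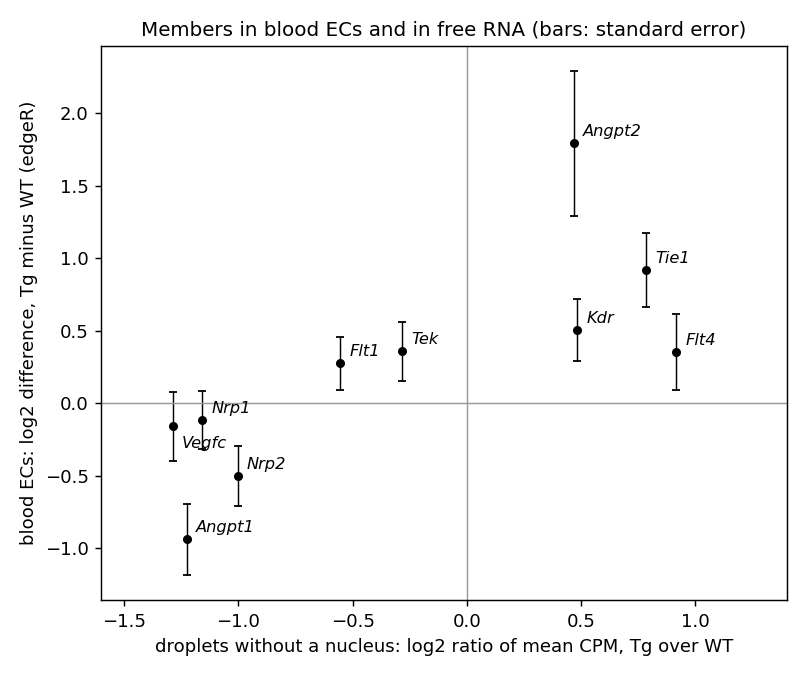
Log2 fold change of Tg over WT mice in blood ECs with its standard error (vertical axis) against the log2 ratio of Tg to WT levels in droplets without a nucleus (horizontal axis), 1 point a gene. Angpt1 and Nrp2 lie low on both axes and Tie1 high on both, while Vegfc (-1.29) and Nrp1 (-1.16) were lower in the Tg droplets and stand near 0 in blood ECs.

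Of the 31 further genes of these pathways, 27 could be tested in blood ECs, where 0 rose and 2 fell, beside the 15.4% of all genes called there, with a median log2 fold change of -0.05. The 2 were the neuropilin and plexin ligands Sema3a (-1.24 ± 0.25, edgeR adjusted p = 0.0217) and Sema3e (-1.31 ± 0.22, 0.0148). Sema3a had 105, 81.1, 31.0 and 45.8 CPM in blood ECs against 189, 137, 47.8 and 73.4 in the droplets. Sema3e had 205, 167, 59.8 and 87.0 CPM against 376, 266, 105 and 130. Both were thus below the droplets in every mouse, and with free RNA subtracted they had 0.26 (adjusted p = 0.821) and -0.18 (0.846). Without Tg mouse 1 neither passed (adjusted p = 0.159 for Sema3a and 0.123 for Sema3e). Vegfa had a log2 fold change of -0.42 ± 0.21 (adjusted p = 0.199). In general capillary ECs 0 of 25 rose and 3 fell, Sema3a (-1.16), Sema3e (-1.38) and the semaphorin receptor Plxna2 (-0.85), beside 16.4% of all genes. Sema3a and Sema3e were below the droplets there in every mouse. With free RNA subtracted or classes set from marker UMIs 0 of these genes were called by edgeR, and Sema3e alone was called without Tg mouse 1 or with at least 2500 UMIs. In aerocytes 1 of 19 rose, Ptprb (1.08 ± 0.23, adjusted p = 0.0184), the phosphatase that restrains Tek, with 91.0, 108, 203 and 187 CPM against 123, 79.6, 172 and 119 in the droplets, and 1 fell, Sema3a (-1.31), beside 11.4% of all genes. The aerocyte means of Sema3a, 85.2 CPM in WT and 30.8 in Tg mice, were below the droplets (163 and 60.6). With DESeq2, free RNA subtracted or classes set from marker UMIs, 0 pathway genes were called in aerocytes. The Ptprb call was lost without WT mouse 1 (0.109), WT mouse 2 (0.0891) or Tg mouse 1 (0.16). In pericytes 0 of 8 passed by edgeR, beside 9.08% of all genes. In alveolar fibroblasts 0 of 19 rose and 2 fell, Sema3a (-1.50, adjusted p = 0.029) and Sema3e (-1.30, 0.0295), beside 9.12% of all genes. Sema3a reached the filter's level there in both WT mice and in 1 Tg mouse. Their means there, 63.5 CPM in WT and 20.6 in Tg mice for Sema3a and 118 and 43.8 for Sema3e, were below those of the droplets (163 and 60.6, 321 and 118), and neither was called with DESeq2 (adjusted p = 0.272 and 0.193) or without Tg mouse 1 (0.135 and 0.209). With free RNA subtracted neither had enough UMIs to test.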

How the data were processed

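Nuclei of 4 lungs were sequenced with a 10x 3′ kit. The authors deposited unfiltered matrices of UMI counts per gene and barcode, made with Cell Ranger 6.1.1 and mm10 per the submitters' processing notes, with introns counted per the study's methods. The filters, decontX and integration of the study are not part of these counts. Here barcodes with at least 1500 UMIs were kept (median 1860, 1961, 2512 and 2530 UMIs in WT 1, WT 2, Tg 1 and Tg 2) and clustered on 30 principal components of 2000 variable genes, members and pathway genes left out, with 20 neighbours and Leiden resolution 2 (igraph 0.11.9, leidenalg 0.10.2). EC and mesenchymal clusters were clustered again at 0.6, with each mouse centred on its own mean. A class needed 3 markers at a log2 fold of 1, or a fold of 1.5 for general capillary ECs, set after seeing the data. No doublets were removed in the main values. The alternative without cxds doublets left out 21.5%, 30.8%, 20.2% and 35.2% of all barcodes, shares set by the number of barcodes. Of blood ECs it left out 27.1%, 42.0%, 4.60% and 23.3%, more in both WT mice than in either Tg mouse. Alveolar fibroblasts went from 83, 127, 177 and 160 nuclei to 47, 60, 163 and 117. Intervals cover counting error only.

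UMIs were summed per mouse and class and tested with edgeR 4.0.16 (quasi-likelihood, TMM, filterByExpr with a minimum count of 10, Benjamini-Hochberg 0.05), in R 4.3.3. Alternatives were DESeq2 1.42.0, no filter, a replicate block, each mouse left out, 1000 or 2500 UMIs, free RNA subtracted, cxds doublets removed and classes set from marker UMIs. The scripts were tested on simulated data. The members and gene lists were chosen with earlier results of these data known. Named were all 10 members, the pathway genes called in each comparison with Vegfa, and the 2 genes most like each member. Promoters are from RefSeq, with 8 of 10 members matched, and positions from GENCODE on GRCm38.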

Additional observations from a re-analysis of the deposited data

Results flagged for a closer look

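In the interaction test, 2 of the 31 pathway genes had a genotype difference that departed between blood ECs and the other named classes, beside 1.17% of all genes. For Vegfa the difference of the log2 fold changes was 0.86 ± 0.15 (edgeR adjusted p = 0.0286), with means of 122 CPM in WT and 89.3 in Tg blood ECs and of 952 and 665 in AT1 cells. AT1 nuclei numbered 772, 1270, 1067 and 938 of the 7492, 9660, 15890 and 18783 nuclei in the sum of the other classes. Their share was thus lower in both Tg mice, and the part of this makeup was not tested. With classes set from marker UMIs the value was 0.05 (adjusted p = 0.937), and 5 of 13 alternatives lost the call. For Sema3d, a semaphorin ligand, it was -1.22 ± 0.16 (adjusted p = 0.00772), with means of 41.4 and 45.2 CPM in blood ECs, below the 66.2 and 65.0 CPM of the droplets. With the other classes limited to those with 10 nuclei in every mouse, a setting chosen after seeing the data, Sema3d turned to 0.19 and 0 pathway genes were called. The nuclei named club or mesothelial in the sum of the other classes were nearly all of Tg mice. Clusters with under 3 markers stayed unnamed. Of these, 1 with 398, 673, 10 and 99 nuclei scored highest for mesothelial genes. Another with 1682, 1788, 9 and 99 nuclei scored highest for club genes, as did 1 with 0, 3, 578 and 3086. How far the naming made the imbalance was not tested.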

How the results depend on the processing

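In the order blood ECs, general capillary ECs, aerocytes, pericytes, alveolar fibroblasts and interaction, the main counts were 2052, 2009, 958, 282, 684 and 210. DESeq2 called 1207 in general capillary ECs, 480 in aerocytes, 116 in pericytes and 307 in alveolar fibroblasts. With no filter the count was 3729 in blood ECs, 1525 in aerocytes and 902 for the interaction. With at least 2500 UMIs it was 905 in blood ECs, 825 in general capillary ECs, 546 in aerocytes and 379 in alveolar fibroblasts, and pericytes were not run there. With free RNA subtracted it was 220, 60, 77, 8, 83 and 51 in the order above. Classes from marker UMIs gave 1099 in blood ECs, 467 in general capillary ECs and 313 in aerocytes, and removing cxds doublets gave 150 in pericytes. Of settings chosen after seeing the data, leaving out the general capillary cluster with weaker EC markers gave 138 for the interaction, and limiting its other classes to those with 10 nuclei in every mouse gave 326. Leaving out each mouse gave 2 to 2932 in blood ECs (2 without Tg 1), 1202 to 2077 in general capillary ECs, 198 to 892 in aerocytes, 112 to 374 in pericytes, 416 to 1066 in alveolar fibroblasts and 343 to 951 for the interaction.

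The replicate block gave 3259 calls in blood ECs, 3015 in general capillary ECs, 1443 in aerocytes, 308 in pericytes and 887 in alveolar fibroblasts. The labels do not say that equal numbers pair the mice, and with 2 pairs the correlations of deviations were 0.18, 0.11, 0.089, -0.030 and -0.011. With the block, the members called in blood ECs were Tie1, Angpt1 and Angpt2, and in general capillary ECs Nrp2, Tie1, Angpt1 and Angpt2.

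Some directions turned, among them those of 3 called differences. In blood ECs these were Flt1 (-0.055) and Tek (-0.14) with classes from marker UMIs, Flt4 (-0.10) and Sema3a (0.26, called in the main test) with free RNA subtracted, Nrp1 without Tg 1 (-0.30 to 0.041 over the mice left out), and Vegfc without WT 1 or Tg 2 (-0.39 to 0.094) or without cxds doublets (0.028). Nrp2 in general capillary ECs, also called, turned to 0.13 with free RNA subtracted. Angpt1 in pericytes turned to -0.0060 with no filter, -0.17 without WT 1 (-0.17 to 0.29 over the mice left out), -0.20 with free RNA subtracted and -0.18 with marker UMIs. In the interaction, Tek turned to -0.54 (free RNA subtracted) and -0.55 (marker UMIs), Kdr to 0.010 with the classes of 10 nuclei in every mouse, and Sema3d, called, to 0.17 with marker UMIs and 0.19 with those classes. The cause was not tested.

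The calls of Angpt1 in blood ECs were lost in 8 of 13 alternatives (adjusted p 0.00267 to 0.229), of Nrp2 in general capillary ECs in 7 of 13, of Angpt2 there in 5 of 8, of Tie1 and Angpt1 in aerocytes in 7 and 9 of 12, and of Tek in alveolar fibroblasts in 6 of 10. These counts take in only the alternatives in which a gene was tested. In the rest of the 13 alternatives Angpt2 was not tested in general capillary ECs, so it could not be called there. The same held for Tek in the rest of the 12 alternatives for alveolar fibroblasts. All 10 members exceeded 2 times the droplets in every mouse in their highest class, and 9 did against droplets of 100 to 300 UMIs, of which there were only 95 to 113 a mouse. Depth limited Angpt2 and Flt4 in pericytes, with 2 to 7 and 0 to 6 UMIs a mouse.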

Other observations

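Angpt2 was higher in the Tg mice in immune and epithelial classes as well, which entered no test. Alveolar macrophages had 12, 21, 135 and 220 UMIs of Angpt2 in WT 1, WT 2, Tg 1 and Tg 2, a ratio of the summed UMIs per class UMI of 6.15 (95% exact binomial interval of counting error, 4.30 to 9.08), and levels of 2.89, 2.27, 15.6 and 14.9 CPM. The WT and Tg nuclei of that class lay mostly in different clusters. Monocytes or interstitial macrophages had Angpt2 levels of 4.5, 4.6, 19.1 and 8.0 CPM and T or NK cells of 4.1, 3.7, 19.5 and 6.9 CPM, against 3.42, 2.38, 3.41 and 4.62 CPM in the droplets. AT2 cells had 1.65, 2.36, 6.77 and 3.66 CPM of Angpt2, AT1 cells 2.13, 2.13, 5.43 and 5.86 CPM and ciliated cells 1.23, 2.03, 6.83 and 8.15 CPM. Mcph1, on the other strand over Angpt2, had 88.4, 123, 74.6 and 87.0 CPM in alveolar macrophages, higher in WT.

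Part of the Angpt1 signal lay in nuclei that no marker list named. Unnamed mesenchymal nuclei held 969, 696, 641 and 741 CPM of Angpt1 in 187, 275, 143 and 213 nuclei, between the levels of adventitial fibroblasts and alveolar fibroblasts. An unnamed cluster outside the mesenchyme, mostly of WT nuclei and led by Fer1l6, Scin and Tacr1, held 262 CPM of Angpt1 in WT 1 (766 UMIs) and 120 in WT 2 (104 UMIs), against 72.9 and 47.4 in the droplets. It scored highest for club genes. Tacr1 and Fut9 were also among the leading genes of a named club cluster of 0, 0, 1209 and 922 nuclei. Kdr exceeded the WT droplets (77.0 and 115 CPM) in 2 other unnamed clusters of mostly WT nuclei. The WT mice had 152 and 140 CPM in the mesothelial-like one, and 138 and 147 in a club-like one. In Tg 2 they had 142 and 110 CPM, below the 147 of the droplets. Vegfc had 118 and 109 CPM in the WT mice in the mesothelial-like one, against 67.1 and 42.7 in the droplets. Unnamed clusters of mostly Tg nuclei are not described here.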
